A study of Mus musculus with 42 samples.

Results

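The first 6 hours of embryoid body differentiation were described from 4 libraries, replicates A and B at 0 h and replicates A and B at 6 h, out of the 42 libraries of a time course with 21 time points. The members are all 14296 genes with a value in these libraries, and the comparison is 6 h minus 0 h. The cells were W9.5 mouse embryonic stem cells (mESCs) of strain 129X1/SvJ, used at low passage and from 1 line only. At 0 h the cells were at the start of induction, and at 6 h they had been left to differentiate spontaneously into embryoid bodies without leukemia inhibitory factor (LIF). Replicates A and B were duplicate cultures, and each library was made from poly-A RNA with a stranded kit. No library from a culture held for 6 h in the starting conditions was analysed here, so that the departure from pluripotency, the change of culture conditions and the time of sampling cannot be told apart.

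Mouse embryonic stem cells are kept in a naive state by LIF, which acts through the receptor pair Lifr and Il6st on the transcription factor Stat3, and by a network of factors around Pou5f1, Sox2 and Nanog. Fibroblast growth factor signals through the ERK kinases push the cells out of this state. When the growth conditions or the shape of a cell change, the first genes to respond are often immediate early genes, whose products include the AP-1 transcription factors, and genes read by serum response factor (SRF) or by YAP with its TEAD partners, which follow the state of the actin cytoskeleton. Cells that meet low oxygen stabilise Hif1a, which switches on genes for glycolysis, blood vessel growth and mitochondrial turnover.

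The 4 libraries held 18288111 to 29733218 counted reads on these genes. A level of 3 reads, the floor used here, was 0.109 to 0.175 CPM, so that a gene below this level was not reliably detectable. Intervals and floors cover counting error only. The duplicates were separate cultures and differed by more than the sampling of reads (chi-square per degree of freedom 18.4 at 0 h and 9.14 at 6 h). All 8 markers of naive mESCs were measured, with a summed level of 4059 and 4306 CPM at 0 h and 4901 and 4946 CPM at 6 h in replicates A and B, so that the labelled cell type was seen in all 4 libraries. Of 8 fibroblast markers 7 were measured, and their sum was 46.5 and 49.2 CPM at 0 h against 15.6 and 14.9 CPM at 6 h. Pdgfrb and Col1a1 fell among these, and Thy1 was not called (-1.07, adjusted p = 0.004). Col1a2 had 2 or 3 reads in each library, Col3a1 was at 0 reads in all 4 libraries, and Dcn and Postn had at most 2 reads in any library. Primitive endoderm, trophoblast and primitive streak markers summed to at most 19.7 CPM in any library, and the trophoblast sum was 3.77 and 3.49 CPM at 0 h and 8.75 and 9.34 CPM at 6 h. In bulk samples, fewer cells of a type and less RNA per cell cannot be told apart.

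Within 6 hours a large share of the measured transcriptome passed the test, in both directions. Of the 14296 genes, 3762 (26.3%) differed between 0 h and 6 h at an adjusted p below 0.0001 (limma over all 42 libraries, Benjamini-Hochberg over all genes, n = 2 per time point). At 6 h 1692 genes (11.8%) were higher and 2070 (14.5%) were lower. The changes were large, with 268 of the higher and 482 of the lower genes past 4-fold and 112 and 108 past 8-fold. The median difference was 1.08 on the log2 scale among the higher genes and -1.37 among the lower genes, against -0.05 over all genes. Without 1 of the 4 libraries fewer genes passed, 2381 without 0 h A, 2292 without 0 h B, 2307 without 6 h A and 2478 without 6 h B, in a fit with fewer samples. The balance of the 2 directions depended on the scaling of the libraries. Scaled to total counted reads, the median over all genes moved from -0.047 to -0.265 and 1036 genes were higher and 2951 lower, and centred on the median of each library the median was 0.072 with 2125 higher and 1684 lower. All later differences are therefore relative to the normalization of the authors.

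The replicates were compared gene by gene. The change from 0 h to 6 h was computed in replicate A and in replicate B separately, and 12873 of the 14296 genes (90.0%) had the same sign in both. Across all genes the changes in A and B correlated with r = 0.888 (Spearman's rho 0.911), and with r = 0.963 across the 11782 genes that averaged 1 log2 CPM or more. These correlations run across genes, which are no independent replicates, and only describe how alike the courses were. All 3762 called genes had the same sign in both replicates, and in none did the 0 h and 6 h libraries overlap. Both are descriptions only, since the test used the same libraries. Agreement in sign rose with the level of the gene, from 77.6% of 1416 genes with a mean below 0 log2 CPM to 93.0% of 3403 genes that averaged 6 log2 CPM or more. Of the 1596 genes at least 2-fold higher in replicate A, 1195 (74.9%) were so in B, and of the 2292 genes at least 2-fold lower in A, 1946 (84.9%) were so in B. In all, 2251 called genes (15.7%) passed 2-fold in both replicates, 852 (5.96%) upward and 1399 (9.79%) downward.

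**Figure D1:**
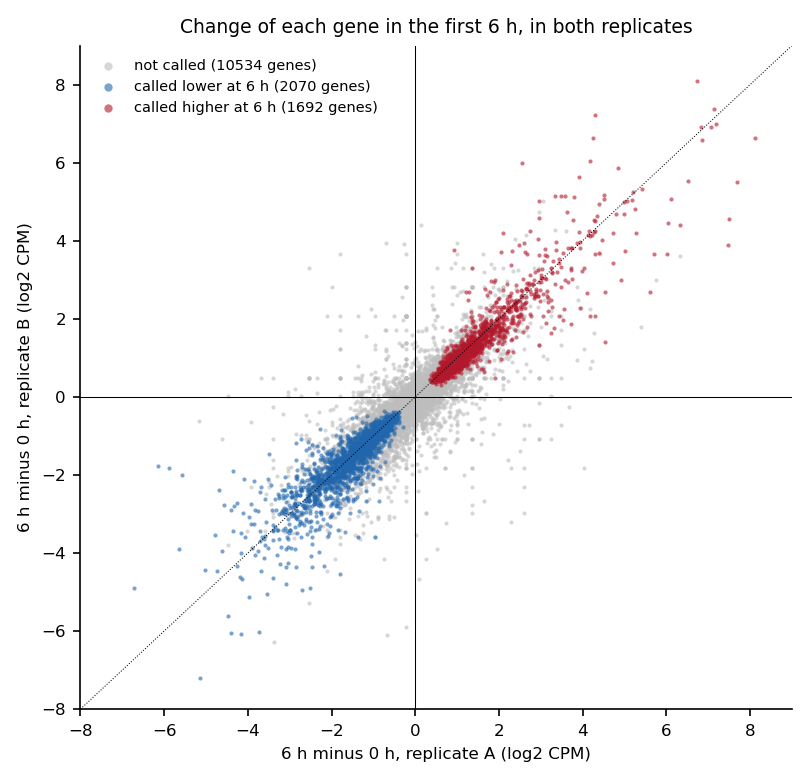
Change of each gene from 0 h to 6 h in replicate A (horizontal axis) and replicate B (vertical axis), both in log2 CPM, with 1 point per gene, coloured by the limma call, and a dotted line where both changes are equal. The 1692 higher genes lie in the upper right and the 2070 lower genes in the lower left, with no called gene in the quadrants where the replicates disagree.

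Genes were then grouped into 52 lists by function, and 1556 of the 1723 genes on them were measured. In any list a gene with almost no reads at 0 h was kept only through other times and could hardly fall. Of the neuroectoderm list 15 of 26 genes were measured, and of the trophoblast list 13 of 19. The lists were described by the members that passed the test and by their median, beside 11.8% higher and 14.5% lower over all genes. Keratins and epidermal genes, actin cytoskeleton genes with SRF and YAP targets, AP-1 and immediate early genes, FGF and ERK signaling, ribosome biogenesis, metallothioneins with zinc transport and neuroectoderm genes had the highest shares of rising members. Hypoxia response, glycolysis, fatty acid synthesis, ion channels and the Notch pathway had the highest shares of falling members. Ribosomal protein genes, respiratory chain subunits and proteasome subunits had few called members.

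**Figure D2:**
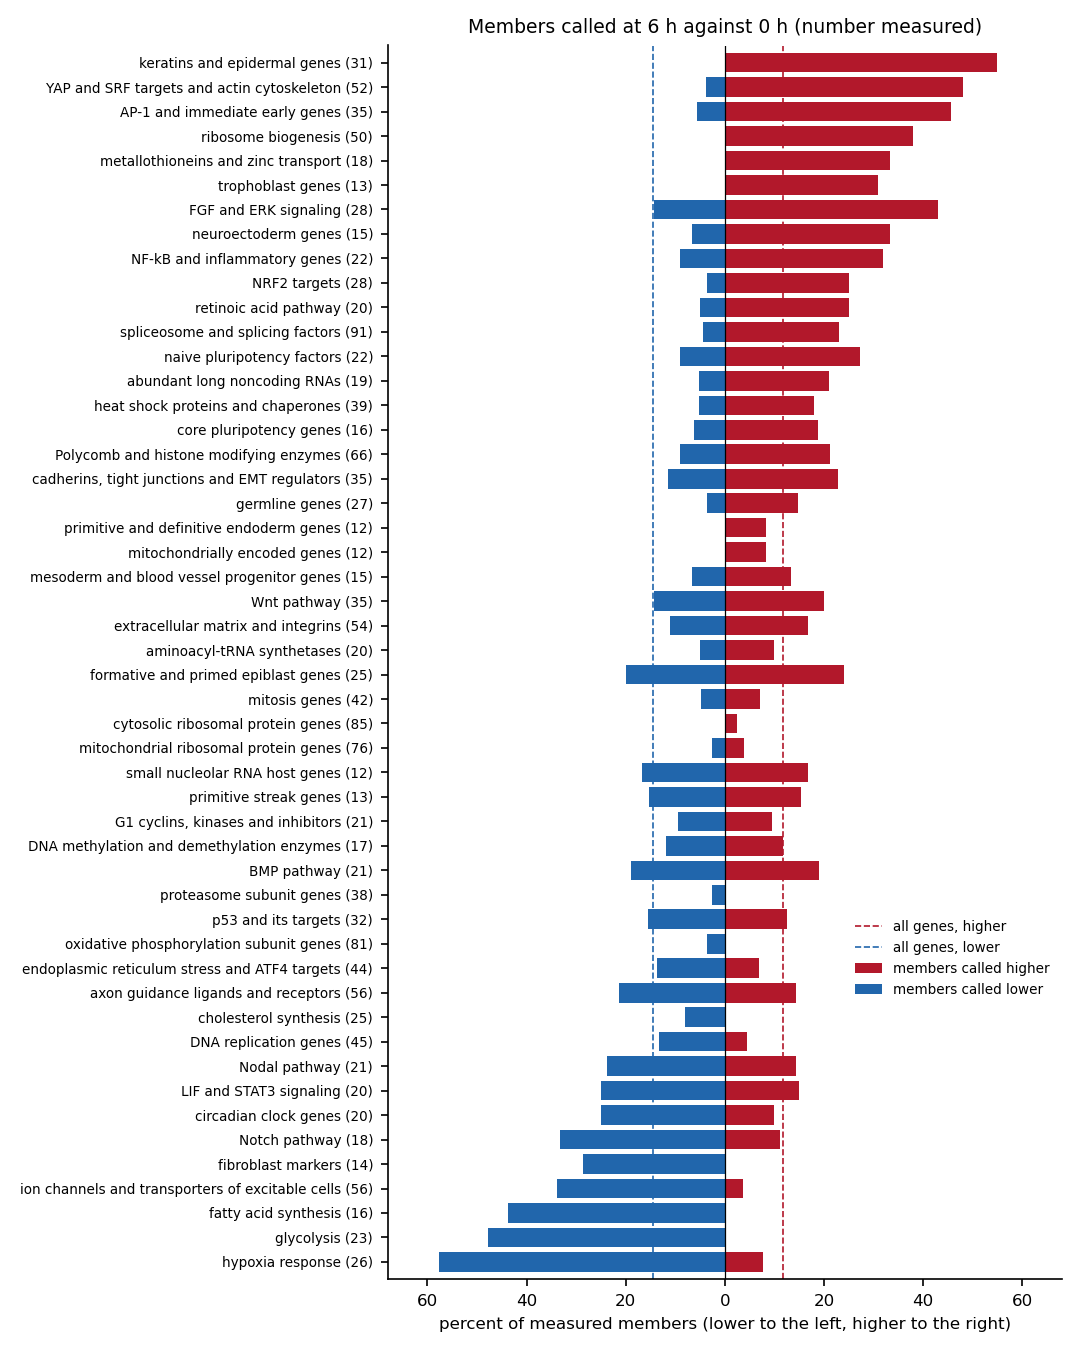
Percent of the measured members of each gene list called higher (red, right) or lower (blue, left) at 6 h, for lists with at least 10 measured members, with the number measured in parentheses. Dashed lines mark the shares over all 14296 genes, 11.8% higher and 14.5% lower, and the list shares run from 54.8% higher for keratins and epidermal genes to 57.7% lower for the hypoxia response.

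Of 35 measured AP-1 and immediate early genes 16 rose (45.7%), 2 fell (5.71%) and 17 were not called, with a median difference of 1.16, and 13 to 14 rose without 1 of the libraries. Fosl1 (ENSMUSG00000024912.5, protein coding, chr19:5447547-5455946, GRCm38), an AP-1 subunit of the Fra type, had -0.07 and 0.02 log2 CPM at 0 h (replicates A and B) and 5.1 and 5.07 log2 CPM at 6 h. It rose 34.5-fold, by 5.11 ± 0.46 (log2, SE, adjusted p = 5.94e-10), with the pairs of libraries far apart. Its relative Fosl2 had -0.14 and -0.31 log2 CPM at 0 h and 3.3 and 3.12 at 6 h, a 10.8-fold rise. Jun, the usual partner of the Fos family, rose 4.28-fold, from 2.43 and 2.63 to 4.73 and 4.54 log2 CPM. Neither group of 2 libraries overlapped the other for these genes, as in every called gene. Fos itself, which typically peaks within an hour of a stimulus, had 0.78 and 0.95 log2 CPM at 0 h and 1.85 and 1.87 at 6 h, and did not pass (difference 1.0, adjusted p = 0.0022). Junb rose 2.23-fold and Egr1, a zinc finger factor downstream of ERK, 3.18-fold. Klf6, a zinc finger factor, rose 6.73-fold, and Egr3 went from 1 read over both 0 h libraries to 70 over both 6 h libraries, a ratio of 74.8 (95% counting interval 13 to 2994), though its call was lost without 0 h B, 6 h A or 6 h B (adjusted p up to 0.00174). Ptgs2, the inducible cyclooxygenase, had 0 reads in both 0 h libraries and 78 and 42 at 6 h, at least 42.7-fold higher against a floor of 3 reads over the group. Ier3 went the other way, from 3.73 and 3.84 to 0.85 and 1.09 log2 CPM, 7.03-fold lower, and Ier5 was 2.39-fold lower, a call lost without 0 h A or 6 h B (adjusted p up to 0.000295).

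FGF and ERK signaling split by role. Among 20 measured feedback regulators and targets of ERK 12 rose and 1 fell, with a median difference of 1.13, and among 8 ligands and receptors none rose and 3 fell, with a median of -1.06. Phlda1 (ENSMUSG00000020205.7, protein coding, chr10:111506286-111508645) had 2.61 and 2.91 log2 CPM at 0 h and 7.6 in both replicates at 6 h, a 28.6-fold rise (4.84 ± 0.18, adjusted p = 1.27e-17). Myc, the growth-promoting transcription factor, rose 8.88-fold, from 4.55 and 4.43 to 7.57 and 7.71 log2 CPM (3.15 ± 0.34, adjusted p = 1.42e-08). The groups were more than 3 log2 units apart in both genes, many times the gap between duplicates at 6 h. Several genes for phosphatases that switch MAP kinases off rose as well, Dusp5 by 7.03-fold, Dusp4 by 5.41-fold and the ERK-specific Dusp6 by 2.72-fold. Dusp9, of the same family, fell, with a difference of -0.85. Spry4, an inhibitor of receptor tyrosine kinase signals, rose 3.92-fold. Dusp6 moved from 5.72 and 5.87 to 7.24 log2 CPM in both replicates. On the ligand side Fgf15 fell 3.42-fold, from 4.45 and 4.31 to 2.55 and 2.66 log2 CPM, and Fgf8 stood at 16 and 21 reads at 0 h and 3 and 6 at 6 h, a call lost without 0 h A, 0 h B or 6 h A (adjusted p up to 0.0117). Fgf4, the main autocrine FGF of mESCs, was not called, with a difference of -0.47 (adjusted p = 0.000335), nor was its receptor gene Fgfr1, with -0.3 (adjusted p = 0.015).

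Of 52 measured genes of the actin cytoskeleton and targets of SRF and YAP 25 rose (48.1%), 2 fell (3.85%) and 25 were not called, with a median of 1.06, and 22 to 24 rose without 1 of the libraries. Of the 31 actins and actin-binding proteins 15 rose and none fell. Actb, the main cytoplasmic actin, had 10.12 and 10.16 log2 CPM at 0 h and 12.48 and 12.55 at 6 h, a 5.17-fold rise (2.37 ± 0.13, adjusted p = 3.11e-14). Actg1, the second cytoplasmic actin, rose 4.61-fold, from 8.63 and 8.53 to 10.82 and 10.74 log2 CPM. Reads of Actb and Actg1 may in part be shared between near-identical copies, which the counting could split. Srf, the factor that reads free actin through its coactivators, rose 2.87-fold, from 5.27 and 5.19 to 6.81 and 6.7 log2 CPM, and Vcl, the focal adhesion protein vinculin, rose 2.9-fold. Smooth muscle type genes were also higher, Tagln by 6.61-fold and Myl9 by 8.47-fold. Among the secreted YAP targets Ccn1 rose 9.39-fold, from 1.26 and 1.57 to 4.52 and 4.77 log2 CPM, Ccn2 9.7-fold and Thbs1 11.2-fold. Of the regulators, Tead4 rose 4.92-fold while Tead2 fell 1.72-fold and the receptor kinase gene Axl fell 3.53-fold. Yap1 was not called, with a difference of 0.24 (adjusted p = 0.0044).

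Promoters of this list were searched for the CArG box, the motif of SRF (CC, then 6 bases of A or T, then GG), in the 250 bases before the RefSeq start site. It was found in 6 of the 20 rising members with a promoter entry (30%), Actg1, Cnn2, Fhl2, Myl9, Srf and Vcl, in 7 of 45 measured members (15.6%), and in 1.14% of the promoters of all measured genes. The TEAD motif GGAATG was found in 20 of the 45 measured members (44.4%), in 7 of the 20 rising members (35%) and in 10.5% of all measured genes, so that its share was no higher among the rising members than over the list. A match is a description of the sequence and not a site of binding. The list was chosen to hold SRF and YAP targets, so that an excess over all genes may follow from its choice. The promoters of Actg1 (chr11:120348496-120348745, minus strand) and Vcl (chr14:20929148-20929397, plus strand; both RefSeq, GRCm38.p6) are shown because they carry the motif in rising genes, with the CArG box in capitals.
Actg1: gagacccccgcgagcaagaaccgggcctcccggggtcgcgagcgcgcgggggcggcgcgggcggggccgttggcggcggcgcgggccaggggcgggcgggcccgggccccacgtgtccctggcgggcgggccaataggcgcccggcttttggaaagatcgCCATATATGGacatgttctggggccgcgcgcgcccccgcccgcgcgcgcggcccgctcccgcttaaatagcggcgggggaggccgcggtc
Vcl: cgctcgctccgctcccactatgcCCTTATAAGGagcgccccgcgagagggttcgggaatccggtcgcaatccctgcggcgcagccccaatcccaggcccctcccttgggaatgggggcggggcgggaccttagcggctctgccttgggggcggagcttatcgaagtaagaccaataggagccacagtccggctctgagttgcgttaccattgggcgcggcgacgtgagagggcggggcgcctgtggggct

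Keratins and epidermal genes had the highest share of rising members among the measured genes of each list. Of the 50 genes on this list 31 were measured, and Krt5, Krt14 and Trp63 were among those absent. A gene with almost no reads at 0 h was kept only if it was higher at other times, so that it could hardly fall. Of 31 measured members 17 rose (54.8%) and none fell, with a median of 1.42, and 11 to 14 rose without 1 of the libraries. Krt13 (ENSMUSG00000044041.4, protein coding, chr11:100117327-100121566), a keratin of stratified epithelia, had 2 and 2 reads at 0 h (-3.24 and -3.27 log2 CPM) and 411 and 296 reads at 6 h (3.9 and 4.11 log2 CPM). The fitted rise of 7.26 ± 0.97 (adjusted p = 4.31e-07) depends on the offset that voom adds to such low counts. Krt8 and Krt18, the keratin pair of simple epithelia, rose 6.92-fold and 2.11-fold. For Krt8 the levels were 5.4 and 5.6 log2 CPM at 0 h and 8.28 and 8.3 at 6 h, and the call of Krt18 was lost without 0 h A or 6 h A (adjusted p up to 0.000313). Krt19 did not pass, with 4.14 and 4.15 log2 CPM at 0 h and 4.1 and 4.23 at 6 h. Sfn, the epithelial 14-3-3 protein, went from 4.44 and 4.34 to 8.6 in both replicates, an 18.5-fold rise. Lgals3, a galectin, rose 17.6-fold, Anxa1, a calcium-dependent membrane-binding protein, 19-fold and its relative Anxa2 3.26-fold. Krtdap, an epidermal secreted protein, had 0 reads at 0 h and 84 and 45 at 6 h, at least 45.9-fold higher, and its call was lost whichever of the 4 libraries was left out (adjusted p up to 0.000159). The AP-1 motif TGACTCA was in 4 of the 14 promoters of rising members (28.6%), Anxa2, Emp1, Krtdap and Lor, in 5 of the 20 measured members (25%), a like share, and in 2.81% of all measured genes. It was in none of the 10 promoters of rising AP-1 and immediate early genes.

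Mt1 and Mt2, which encode metallothioneins, small proteins that bind zinc and other metals, rose. Mt1 had 6.25 and 6.36 log2 CPM at 0 h and 9.97 and 10.18 at 6 h, a 13.6-fold rise (3.77 ± 0.27, adjusted p = 6.37e-12). Mt2 had 5.65 and 5.82 log2 CPM at 0 h and 9.82 and 9.94 at 6 h, a 17.7-fold rise (4.15 ± 0.21, adjusted p = 1.41e-14). Both genes were higher in each 6 h library than in either 0 h library, as was every gene called higher. Mt3, the brain-type member, pointed the other way and was not called, with 2.85 and 2.72 log2 CPM at 0 h and 1.65 and 1.91 at 6 h. Of 18 measured metallothionein and zinc transport genes 6 rose (33.3%) and none fell, and their median of 0.17 turned to -0.05 under scaling to total reads. The zinc exporter Slc30a1 rose 2.55-fold and the importer Slc39a14 3.32-fold. Mtf1, the metal-sensing factor that acts on these genes, was not called, with a difference of 0.11.

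Metal response elements were searched as TGCACNC or TGCGCNC on both strands. All 4 rising members of this list with a promoter entry held a match, Mt1, Mt2, Slc30a1 and Slc30a4, as did 6 of the 15 measured members (40%) and 31% of the promoters of all measured genes, so that the motif is common. The promoters of Mt1 (chr8:94178839-94179088, plus strand) and Mt2 (chr8:94172368-94172617, plus strand; both RefSeq, GRCm38.p6) are shown for the 2 genes with the largest rise, with matches in capitals.
Mt1: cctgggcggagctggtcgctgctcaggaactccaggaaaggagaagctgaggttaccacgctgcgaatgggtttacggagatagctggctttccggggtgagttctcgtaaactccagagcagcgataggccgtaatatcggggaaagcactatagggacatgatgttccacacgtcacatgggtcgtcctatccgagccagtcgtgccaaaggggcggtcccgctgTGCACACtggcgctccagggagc
Mt2: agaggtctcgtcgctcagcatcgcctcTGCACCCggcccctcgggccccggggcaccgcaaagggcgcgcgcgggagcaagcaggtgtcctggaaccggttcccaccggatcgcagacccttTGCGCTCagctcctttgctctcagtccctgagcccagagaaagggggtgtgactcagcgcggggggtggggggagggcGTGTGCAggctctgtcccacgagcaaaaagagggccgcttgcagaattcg

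Other stress genes moved less uniformly. Of 28 NRF2 targets, the genes of the oxidative stress response, 7 rose (25.0%) and 1 fell (3.57%), and 4 rose under scaling to total reads and 4 to 6 without 1 of the libraries. Hmox1, heme oxygenase, rose 6.06-fold, from 5.7 and 5.76 to 8.35 and 8.31 log2 CPM (2.6 ± 0.13, adjusted p = 7.45e-15). Gclm, a subunit of the glutathione-synthesising ligase, rose 2.68-fold and the autophagy adaptor gene Sqstm1 2.34-fold. Nqo1, another classic target, had a difference of 0.9 and was not called (adjusted p = 0.00033), and neither was Nfe2l2, the gene of NRF2 itself, with 0.3. Of 39 heat shock proteins and chaperones 7 rose (17.9%) and 2 fell, but 3 to 4 rose without 1 of the libraries, and the median of 0.17 turned to -0.07 with quantile normalization and to -0.04 with total reads. Hspa8, the constitutive HSC70, rose 2.43-fold, from 10.91 and 10.82 to 12.11 and 12.18 log2 CPM.

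Many genes for making ribosomes rose, while few genes for ribosomal proteins were called. Of 50 ribosome biogenesis genes 19 rose (38.0%) and none fell, with a median of 0.61, and 13 to 15 rose without 1 of the libraries. Rrs1, needed for the large subunit, rose 2.67-fold, from 5.64 and 5.76 to 7.06 and 7.17 log2 CPM. Nop58, a core protein of box C/D small nucleolar RNPs, rose 2.25-fold and Tsr1, a small subunit maturation factor, 2.35-fold. Fbl, the methyltransferase of the same RNPs, was not called (difference 0.07), nor was Ncl, nucleolin (0.83, adjusted p = 0.000297). Of 85 cytosolic ribosomal protein genes only 2 were higher and none lower, with a median of 0.01, and this gene family has many processed copies that can take reads. Splicing factors rose in part. Of 91 measured genes 21 rose (23.1%) and 4 fell (4.4%), with a median of 0.40, and 16 to 17 rose without 1 of the libraries. Srsf2, a serine and arginine rich splicing factor, rose 2.79-fold, from 8.34 and 8.43 to 9.85 and 9.88 log2 CPM, Tra2b 2.65-fold and Hnrnpc 2.48-fold. The 4 that fell were the kinases Clk1, Clk3 and Srpk2 and the RNA-binding protein Hnrnpl, with differences from -0.95 to -0.46, and 0 to 1 of them passed without 1 of the libraries.

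**Figure D3:**
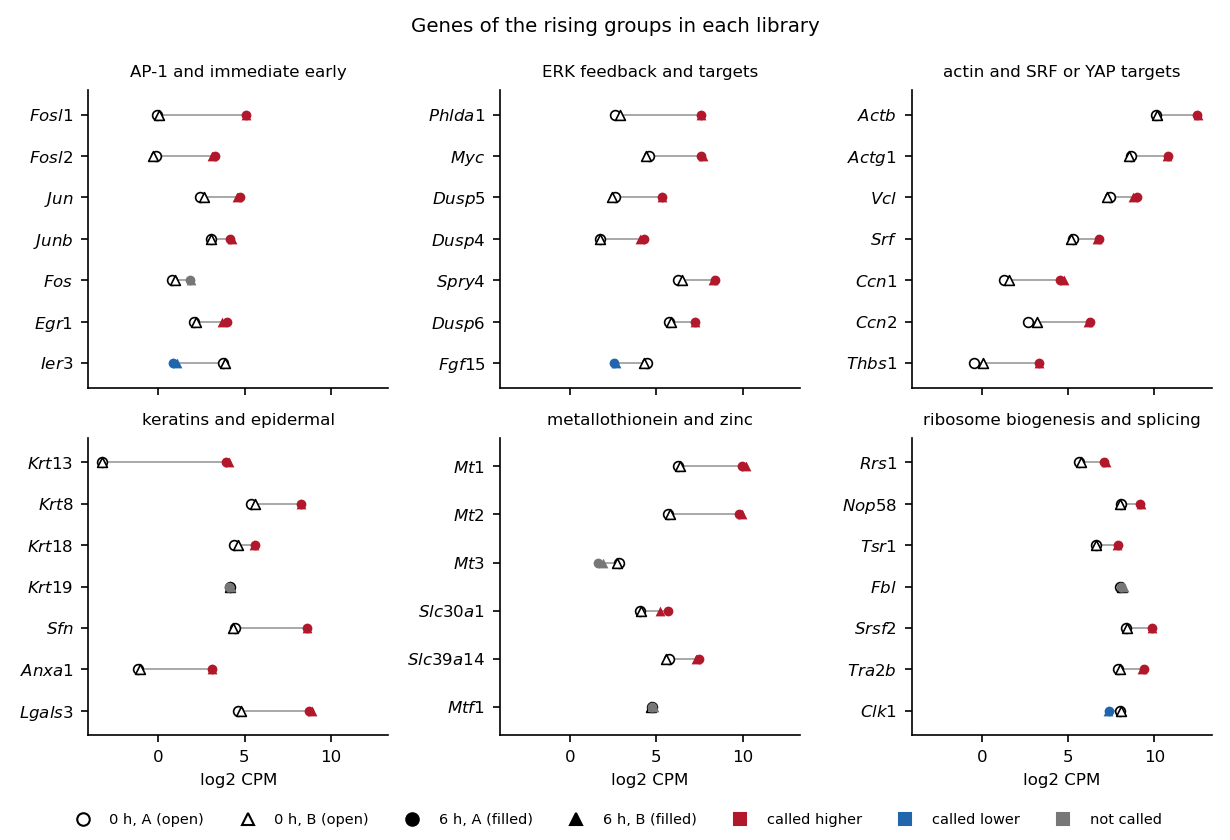
Level in log2 CPM (horizontal axis) of genes from the rising groups at 0 h (open) and 6 h (filled, red where called higher, blue where called lower, grey where not called), circles for replicate A and triangles for replicate B. The duplicates lie close together and the shifts of Fosl1, Phlda1, Krt13, Mt1 and Mt2 are far wider than the gap between duplicates, while Fos, Krt19, Mtf1 and Fbl were not called.

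Adhesion genes were rearranged in both directions. Plaur (ENSMUSG00000046223.9, protein coding, chr7:24462484-24475968), the receptor that gathers urokinase at the cell surface, had 3.33 and 3.32 log2 CPM at 0 h and 8.32 in both replicates at 6 h, a 31.9-fold rise (5.0 ± 0.23, adjusted p = 1.26e-15). Itga3 and Itga6, integrin chains that bind laminins, rose 2.8-fold and 2.37-fold. The call of Itga6 was lost with quantile normalization (adjusted p = 0.000136). Itga5 also rose, with a difference of 0.51, a call lost under quantile or total read scaling (adjusted p up to 0.0267). Of 13 integrin genes 4 rose and none fell, and over the 54 matrix and integrin genes 9 rose (16.7%) and 6 fell (11.1%), with a median of 0.09 that turned to -0.13 under total reads. The 6 that fell were Col1a1, Col5a1, Lama5, Lamb2, Mmp2 and Timp2, of which 1 to 3 passed without 1 of the libraries, while 3 genes fell with quantile normalization. The summed level of fibroblast markers was also lower, 46.5 and 49.2 CPM at 0 h and 15.6 and 14.9 CPM at 6 h. Col1a1 is counted in both. Most reads of that sum were of Thy1 (456 and 533 at 0 h) and Pdgfrb (526 and 512), while Col1a2 had 2 and 2. A part of fibroblasts in the fall of the matrix genes was not tested. Gja1, the gap junction protein connexin 43, rose 5.97-fold, from 5.05 and 5.01 to 7.59 and 7.62 log2 CPM. Cdh2, N-cadherin, had 10 and 8 reads at 0 h and 154 and 84 at 6 h, a 13.3-fold rise. Cdh1, E-cadherin, rose 1.49-fold, a call lost without 0 h A, 0 h B or 6 h A (adjusted p up to 0.0024) and under quantile or total read scaling. Tjp3, a tight junction scaffold, fell 8.09-fold, from 5.16 and 5.28 to 2.19 and 2.21 log2 CPM.

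BMP and retinoic acid genes were mixed. BMP signals induce the Id genes, inhibitors of basic helix-loop-helix factors, and Id1 rose 3.42-fold, from 4.92 and 5.16 to 6.77 and 6.86 log2 CPM, Id3 4.88-fold and Id2 1.93-fold. Smad6 and Chrd fell, with differences of -1.75 and -1.18, and of the 12 measured targets and inhibitors 3 rose and 3 fell (25% each). Bmp4, a ligand that mESCs express, was not called, with a difference of 1.03 (adjusted p = 0.0018). Of the other ligands Bmp2 rose, with a difference of 4.37 (3.96 to 4.78 without 1 of the libraries), while Bmp7 fell 4.89-fold. Over the 21 BMP genes 4 rose and 4 fell (19% each), and 2 to 3 fell without 1 of the libraries. Of 20 retinoic acid genes 5 rose (25.0%) and 1 fell (5.0%), and 3 to 5 rose without 1 of the libraries, while the median of 0.14 turned to -0.08 under total reads. The receptor gene Rarg rose 3.23-fold, from 7.14 and 7.18 to 8.8 and 8.91 log2 CPM. Meis1 and Meis2, homeobox genes known as retinoic acid targets, rose 10.9-fold and 6.63-fold, Meis1 from 33 and 20 reads to 337 and 201. They were the 2 of 8 measured targets that rose, none fell, and the median over the targets was -0.36.

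Most measured genes of the hypoxia response fell. Of 26 members 15 fell (57.7%) and 2 rose (7.69%), with a median of -1.07, and 13 fell whichever of the 4 libraries was left out. Egln3 (ENSMUSG00000035105.5, protein coding, chr12:54178981-54203860), an oxygen-sensing prolyl hydroxylase, had 6.71 and 6.74 log2 CPM at 0 h and 2.89 and 2.7 at 6 h, 15.2-fold lower (-3.93 ± 0.13, adjusted p = 2.14e-18). Bnip3, which directs mitochondria to autophagy, had 7.05 and 7.18 log2 CPM at 0 h and 4.67 and 4.52 at 6 h, 5.71-fold lower. In both genes the 0 h libraries stood well above the 6 h libraries and the duplicates lay close together. Vegfa, the blood vessel growth factor, fell 5.14-fold, from 6.37 and 6.26 to 4.05 and 3.86 log2 CPM, and Ankrd37, a known Hif1a target, fell 7.58-fold. Car12, a carbonic anhydrase, fell 10.7-fold, and Stc1, a secreted glycoprotein, 9.78-fold, though the call of Stc1 was lost whichever of the 4 libraries was left out (adjusted p up to 0.00053) and with quantile normalization. The mRNA of Hif1a itself, whose protein is controlled by degradation, moved the other way, from 6.51 and 6.37 to 7.8 and 7.57 log2 CPM, a 2.37-fold rise (1.25 ± 0.13, adjusted p = 1.01e-08), as did that of the histone demethylase Kdm3a, by 2.35-fold.

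The core of the hypoxia response element, ACGTG, was searched on both strands (it also lies within CACGTG, the E-box of other factors). It was in 8 of the 13 falling members with a promoter entry (61.5%) and 10 of 18 measured members (55.6%), a like share. Over the promoters of all measured genes the share was 21.8%. The list holds known Hif1a targets, so that an excess over all genes may follow from its choice. The promoters of Bnip3 (chr7:138909507-138909756, minus strand) and Ankrd37 (chr8:45999851-46000100, minus strand; both RefSeq, GRCm38.p6) are shown as falling genes that carry it, with matches in capitals.
Bnip3: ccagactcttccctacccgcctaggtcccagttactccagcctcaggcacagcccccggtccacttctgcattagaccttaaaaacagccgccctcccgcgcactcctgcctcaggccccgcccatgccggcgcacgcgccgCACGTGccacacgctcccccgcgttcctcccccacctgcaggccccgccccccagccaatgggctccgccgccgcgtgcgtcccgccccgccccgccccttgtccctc
Ankrd37: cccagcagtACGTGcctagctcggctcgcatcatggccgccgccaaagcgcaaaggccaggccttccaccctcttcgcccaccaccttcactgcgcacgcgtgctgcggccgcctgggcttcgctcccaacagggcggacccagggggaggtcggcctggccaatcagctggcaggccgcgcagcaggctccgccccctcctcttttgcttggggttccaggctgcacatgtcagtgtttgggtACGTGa

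Of 23 measured glycolysis genes 11 fell (47.8%), none rose and 12 were not called, with a median of -0.72, and 8 to 9 fell without 1 of the libraries. Slc16a3, the lactate exporter, fell 5.2-fold, from 6.95 and 7.08 to 4.5 and 4.77 log2 CPM (-2.38 ± 0.14). Among the phosphofructokinase subunits, which set the pace of the pathway, Pfkp fell 3.1-fold, from 8.96 and 8.87 to 7.34 and 7.22 log2 CPM, and Pfkm 2.56-fold. Ldha, lactate dehydrogenase, had 10.5 and 10.62 log2 CPM at 0 h and 9.72 and 9.74 at 6 h, 1.78-fold lower, a call lost without 0 h B, 6 h A or 6 h B (adjusted p up to 0.000459) and with median centring. Gapdh, Hk2 and Pgk1 did not pass, with differences of -0.21, 0.02 and -0.52. ACGTG was found in 5 of the 11 falling glycolysis genes (45.5%) and in 9 of the 22 measured members (40.9%), a like share.

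Fatty acid synthesis genes fell in part, and few cholesterol synthesis genes were called. Of 16 fatty acid synthesis genes 7 fell (43.8%), none rose and 9 were not called, with a median of -0.73. Mlxipl, the glucose-sensing factor ChREBP, fell 8.32-fold, from 3.74 and 3.62 to 0.56 and 0.68 log2 CPM. Scd2, a desaturase that makes monounsaturated fatty acids, fell 3.41-fold, from 9.31 and 9.29 to 7.63 and 7.43 log2 CPM, and Srebf1, the factor that drives such genes, fell 2.21-fold. Fasn and Acly, fatty acid synthase and the enzyme that feeds it, were not called, with -0.23 and -0.27. Of 25 cholesterol synthesis genes 2 fell (8.0%), Dhcr7 by 2.45-fold and Tm7sf2 by 2.25-fold, against 14.5% of all genes. The call of Tm7sf2 was lost without 0 h B, 6 h A or 6 h B (adjusted p up to 0.00158) and with quantile normalization, and 5 and 10 members fell under quantile and total read scaling.

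Of 56 ion channel and related genes of excitable cells 19 fell (33.9%), 2 rose (3.57%) and 35 were not called, with a median of -0.98, and 11 to 15 fell and none rose without 1 of the libraries. Cacng5, a subunit that regulates glutamate receptors, had 75 and 103 reads at 0 h and 2 and 0 at 6 h, a ratio of 83.3 (95% counting interval 22.7 to 694). Asic2, an acid-sensing channel, had 45 and 62 reads at 0 h and 0 and 1 at 6 h, a ratio of 100 (17.6 to 3994), though its call was lost without 0 h B or 6 h A (adjusted p up to 0.000298). Cacna1h, a T-type calcium channel, fell 6.38-fold, from 4.22 and 4.21 to 1.68 and 1.41 log2 CPM, and the potassium channel gene Kcnj3 fell 5.23-fold. These levels were low at 6 h, where depth limits what could be seen.

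Notch genes fell in part, and axon guidance genes were mixed. Of 18 Notch pathway genes 6 fell (33.3%) and 2 rose (11.1%), with a median of -0.52, and 4 to 5 fell without 1 of the libraries. The receptor gene Notch4 fell 3.75-fold, from 5.15 and 5.06 to 3.19 and 3.2 log2 CPM, the ligand gene Dll1 2.6-fold, and Nrarp, a feedback target, 4.22-fold. Rbpj, the DNA-binding partner of Notch, rose 2.09-fold, and the target Hes1 was not called (0.13). Of 56 axon guidance genes 12 fell (21.4%) and 8 rose (14.3%), against 14.5% and 11.8% of all genes. With median centring 10 fell and 12 rose, and the median of -0.11 turned to 0.01. Efna1, an ephrin, had 143 and 155 reads at 0 h and 14 and 7 at 6 h, 13-fold lower, and Sema4g fell 6.78-fold. Nrp2, a receptor for semaphorins and VEGF, rose 32.9-fold, from 2.42 and 2.59 to 7.68 and 7.41 log2 CPM, and Sema6a rose 12.3-fold.

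**Figure D4:**
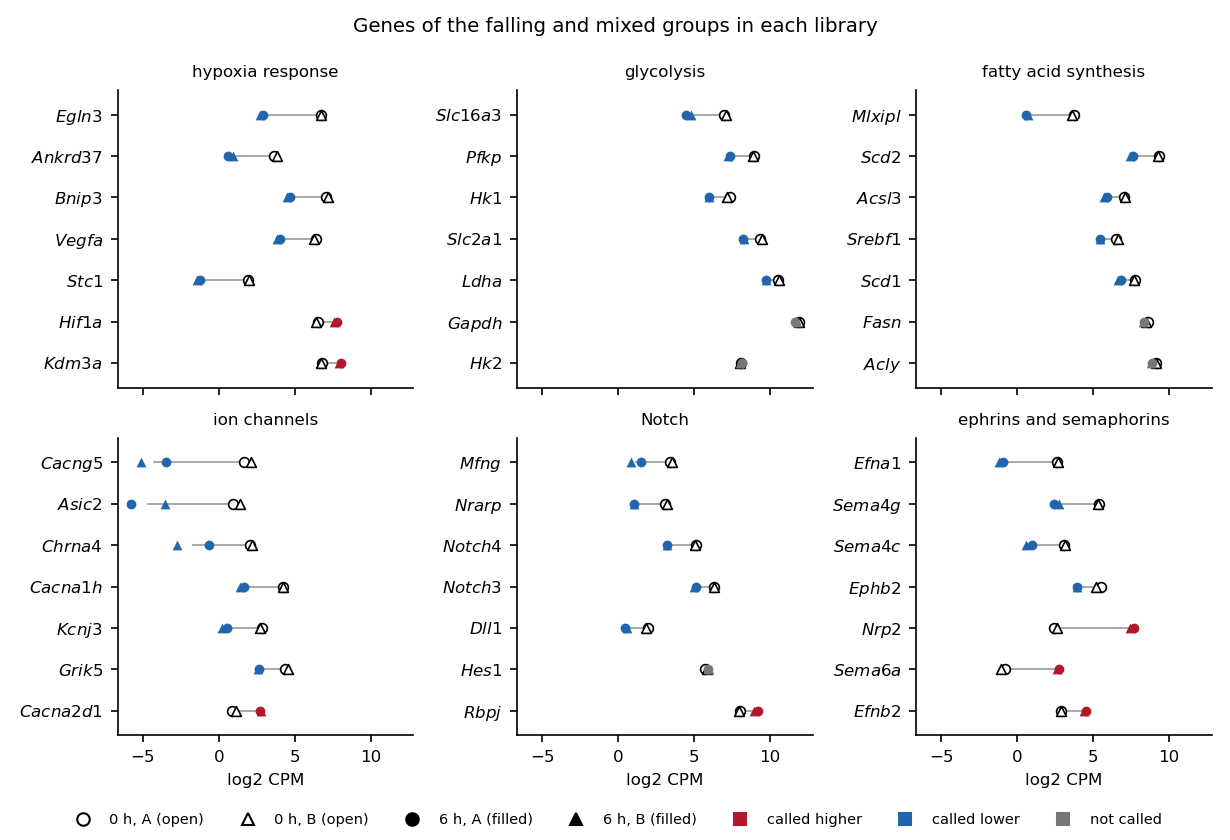
Level in log2 CPM (horizontal axis) of genes from the falling and mixed groups at 0 h (open) and 6 h (filled, blue where called lower, red where called higher, grey where not called), circles for replicate A and triangles for replicate B. Egln3, Bnip3 and Slc16a3 lie to the left at 6 h, while Hif1a, Kdm3a, Rbpj, Nrp2 and Sema6a lie to the right.

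Of 20 circadian clock genes 5 fell (25.0%), 2 rose and 13 were not called. Per3, a repressor of the clock, fell 4.85-fold, from 4.7 and 4.89 to 2.55 and 2.48 log2 CPM, and Per1 2.12-fold, a call lost without 0 h A, 6 h A or 6 h B (adjusted p up to 0.000265). Arntl, the activator BMAL1, rose 4.36-fold, from 4.61 and 4.26 to 6.66 and 6.46 log2 CPM. Of the 2 casein kinases that act on the clock proteins Csnk1d rose, with a difference of 0.59, and Csnk1e fell, with -0.84. The call of Csnk1d was lost under quantile or total read scaling (adjusted p up to 0.000788).

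None of the core factors Pou5f1, Nanog and Sox2 passed the test, while several of their partners in the naive network did. Pou5f1 had 9.88 and 10.08 log2 CPM at 0 h and 10.05 and 10.27 at 6 h, with overlapping groups (difference 0.18, adjusted p = 0.4). Nanog had 8.79 and 8.98 log2 CPM at 0 h and 9.45 and 9.44 at 6 h, and did not pass (0.56, adjusted p = 0.000301), though it passed with median centring. Sox2 had 9.34 and 9.43 log2 CPM at 0 h and 8.99 and 8.94 at 6 h (-0.42, adjusted p = 0.0011), also not called. Of 16 genes of the core list 3 rose and 1 fell, and of 22 naive factors 6 rose (27.3%) and 2 fell (9.09%), with 4 rising and 1 falling whichever of the 4 libraries was left out. This balance depended on the scaling and the fit. The core list had 1 rising and 2 falling with either quantile or total read scaling. It had 4 and 1 with median centring and 7 and 1 in a fit on the 4 libraries alone. The naive list had 4 and 4 with quantile and 4 and 3 with total read scaling. It had 9 and 2 with median centring and 9 and 3 in the fit on the 4 libraries alone. Nr0b1 (ENSMUSG00000025056.4, protein coding, chrX:86191764-86195947), an orphan nuclear receptor of the naive network, rose 5.26-fold, from 5.29 and 5.37 to 7.68 and 7.77 log2 CPM (2.4 ± 0.24, adjusted p = 4.71e-09), and Nr5a2, which can stand in for Pou5f1 in reprogramming, rose 4.61-fold. Gbx2 rose 3.88-fold and Tet2, a methylcytosine oxidase, 3.01-fold, calls lost without 0 h A or 6 h B for Gbx2 and without 0 h B or 6 h A for Tet2 (adjusted p up to 0.000158 and 0.000401). Klf4 fell 2.48-fold, from 8.4 and 8.46 to 7.12 and 7.11 log2 CPM (adjusted p = 5.52e-06), a call lost whichever of the 4 libraries was left out (up to 0.000218). Zfp42, also called Rex1, rose 1.85-fold (adjusted p = 7.55e-05), a call lost whichever of the 4 libraries was left out and under quantile or total read scaling (up to 0.00216 without a library). Esrrb was not called, with 0.6.

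Of 14 targets and feedback genes of the LIF pathway 5 fell, 3 rose and 6 were not called, with a median of -0.30. Bcl3, Icam1, Klf4, Socs3 and Stat3 fell, and Gbx2, Junb and Myc rose. Socs3 (ENSMUSG00000053113.3, protein coding, chr11:117966079-117970047), the feedback inhibitor that Stat3 induces, had 5.12 log2 CPM in both replicates at 0 h and 3.23 and 3.2 at 6 h, 3.74-fold lower (-1.9 ± 0.23, adjusted p = 1.12e-07). Stat3 fell 1.96-fold, from 6.03 and 6.0 to 5.11 and 4.98 log2 CPM. The receptor genes Lifr and Il6st and the kinase gene Jak1 were not called, with differences of -0.07, 0.18 and 0.05. Lif, the gene of the ligand, is not counted on this list. It rose, with a difference of 1.58 (1.30 to 1.85 without 1 of the libraries). Over the 20 LIF and STAT3 genes 5 fell (25.0%) and 3 rose (15%), with 3 falling whichever of the 4 libraries was left out, and the median of -0.06 turned to 0.06 with median centring. Of the Nodal pathway, which patterns the early epiblast, 5 of 21 genes fell (23.8%) and 3 rose (14.3%). Lefty1, a secreted Nodal inhibitor and target, fell 5.0-fold, from 5.16 and 5.35 to 2.77 and 3.1 log2 CPM, and Tdgf1, the Nodal co-receptor Cripto, fell 3.08-fold, from 9.53 and 9.66 to 7.95 and 7.99 log2 CPM. Fst, an activin antagonist, rose 13.7-fold, and Smad2 rose 2.13-fold while Smad3 fell 2.61-fold. Nodal was not called (0.39), nor was Lefty2 (-1.0, adjusted p = 0.001), and Lefty1 and Lefty2 are near copies whose reads the counting could split.

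Genes of later states were mixed. Of 25 formative and primed epiblast genes 6 rose (24.0%) and 5 fell (20.0%), and 3 to 6 rose without 1 of the libraries, while 2 fell with quantile normalization. Zic2 rose 5.8-fold, from 1.49 and 1.59 to 4.14 and 4.02 log2 CPM, while Otx2 and Dnmt3b, which mark the exit from the naive state, were not called (-0.38 and 0.03) and Fgf5 fell from 13 and 13 reads to 5 and 4, with a difference of -1.31, a call lost with quantile normalization. Of the primitive streak genes T and Eomes were not called (-0.8 and 0.14). Evx1 went from 0 and 3 reads to 104 and 58, a ratio of 57.7 (95% counting interval 19.4 to 283), a call lost without 0 h A (adjusted p = 0.000322). Kdr, a receptor of blood vessel progenitors, went from 0 and 5 reads to 102 and 58. Of 13 trophoblast genes 4 rose (30.8%) and none fell, Tead4, Peg10, Cdx2 and Gata3, and 1 to 3 rose without 1 of the libraries. The call of Peg10 was lost whichever library was left out and that of Gata3 without 0 h A, 6 h A or 6 h B (adjusted p up to 0.00405 and 0.000871). Cdx2 went from 0 and 3 reads to 37 and 31, a ratio of 24.2 (7.94 to 120), a call lost without 0 h A or 6 h B (adjusted p up to 0.000578). Of 15 neuroectoderm genes 5 rose (33.3%) and 1 fell (6.67%), and 2 rose among genes that averaged 1 log2 CPM or more. Tubb3, a neuronal tubulin, rose 5.86-fold, from 4.66 and 4.58 to 7.19 and 7.15 log2 CPM, and Nes, the filament protein nestin, 4.46-fold, while Pax6 and Gsx1 had 3 and 1 reads over both 0 h libraries and 63 and 267 over both 6 h libraries. Sox1, an early neural factor, was not called (-0.06).

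**Figure D5:**
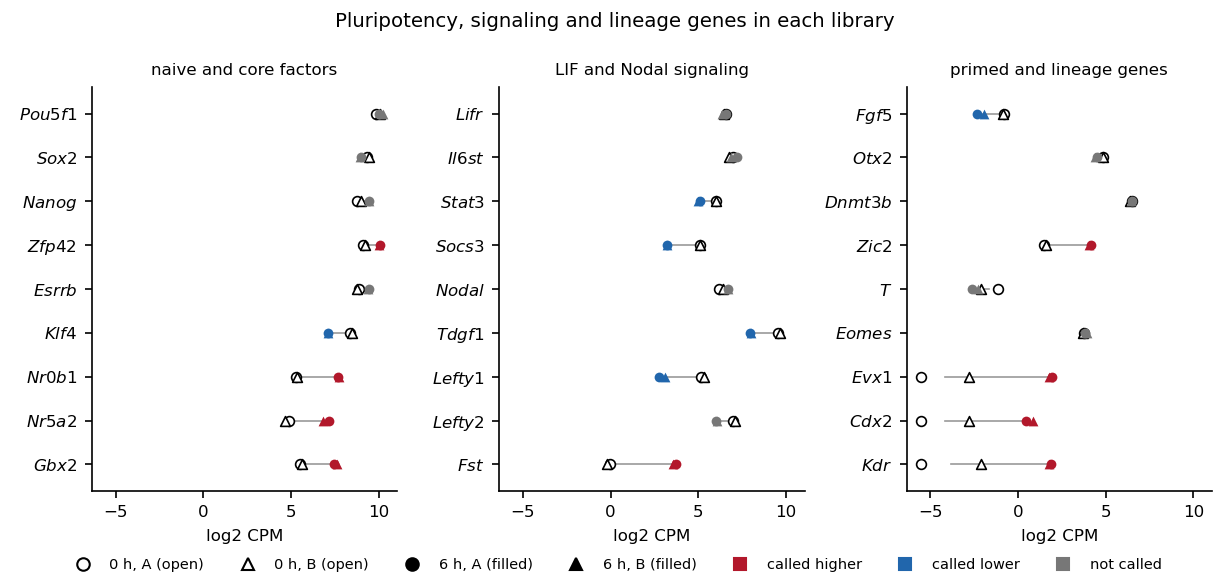
Level in log2 CPM (horizontal axis) of pluripotency, signaling and lineage genes at 0 h (open) and 6 h (filled, red where called higher, blue where called lower, grey where not called), circles for replicate A and triangles for replicate B. Pou5f1, Sox2 and Nanog were not called, Nr0b1 and Nr5a2 lie to the right at 6 h, Socs3, Tdgf1 and Lefty1 lie to the left, and Evx1, Cdx2 and Kdr start near the floor of detection.

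Chromatin genes changed in both directions. Of 66 Polycomb and histone modifying genes 14 rose (21.2%) and 6 fell (9.09%), a balance that turned to 9 rising and 10 falling under scaling to total reads, and 8 to 11 rose without 1 of the libraries. Of the 25 Polycomb subunits 7 rose and 1 fell. Bmi1, a subunit of the ubiquitin-adding Polycomb complex, rose 5.55-fold, from 58 and 41 reads to 330 and 187, and Epop, a partner of the methylating complex, 4.67-fold. Ezh1, one of the 2 methyltransferases of that complex, fell 2.89-fold, from 5.84 and 5.86 to 4.41 and 4.23 log2 CPM, and Ezh2 was not called (0.12). Setd1b, a methyltransferase of active promoters, rose 6.48-fold. Hdac11, a deacetylase, fell 11.9-fold, from 4.26 and 4.17 to 0.56 and 0.73 log2 CPM, and Hdac7 4.79-fold.

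With the normalization of the authors, basic functions stayed close to or under the share over all genes. Of 81 oxidative phosphorylation subunit genes 3 fell and none rose (6 fell with quantile or total read scaling), of 38 proteasome genes 1 fell and none rose, and of 76 mitochondrial ribosomal protein genes 3 rose and 2 fell. Of 45 DNA replication genes 2 rose (4.44%) and 6 fell (13.3%), but 17 and 16 fell with quantile normalization and total reads. These were larger shares than the 1678 and 2951 of all 14296 genes that fell under the same scalings. Of 42 mitosis genes 3 rose and 2 fell, against 0 and 5 with quantile normalization, 0 and 6 with total reads, 6 and 1 with median centring and 1 and 1 whichever of the 4 libraries was left out. Of 21 G1 regulators 2 rose and 2 fell, against 0 and 4 with total reads, and 0 to 1 rose without 1 of the libraries, and Ccnd1, cyclin D1, was not called (0.3).

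Noncoding genes, the antisense, lincRNA and processed transcript genes of the annotation, fell more often than they rose. Of 565 measured 25 rose (4.42%) and 58 fell (10.3%), with a median of -0.46, against 12.5% and 15.1% of 13176 protein coding genes and a median of -0.04. Flicr, annotated as antisense (chrX:7573600-7581027, GRCm38), went from 4 and 1 reads to 58 and 37, a call lost without 0 h B (adjusted p = 0.000195). Whether strand was used in the counting is not stated, so that reads of an antisense gene and its partner cannot be told apart. Mir22hg, the host of a microRNA (chr11:75461539-75466676), rose 9.27-fold, from 18 and 14 reads to 206 and 92. Gm12522 (chr3:108379277-108383741) fell from 62 and 72 reads to 8 and 2, and F630040K05Rik (chr17:45734506-45788594) from 76 and 62 reads to 8 and 3. In these 4 genes the 0 h and 6 h libraries did not overlap, as in all 3762 called genes. Of the better known lncRNAs Ftx, a regulator of X inactivation, rose 3.01-fold, and Mir17hg, the host of a growth-promoting microRNA cluster, rose 2.52-fold, from 5.66 and 5.82 to 7.15 and 7.0 log2 CPM. Meg3 fell, with a difference of -0.91, a call lost with median centring. Over the 19 measured genes of the list of abundant lncRNAs 4 rose (21.1%), 1 fell (5.26%) and 14 were not called, with a median of -0.09. The fit on the 4 libraries alone gave 4 rising and 4 falling.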

How the data were processed

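RNA was sequenced from mESCs at 0 h and 6 h of differentiation, with duplicate cultures A and B, within a course of 42 libraries that share 1 fit. The authors used Trim Galore for trimming, TopHat2 for alignment (mm10) and HTSeq for counts on GENCODE vM2 genes, kept genes above 1 CPM in at least 2 samples, scaled library sizes with edgeR and applied voom of limma, with versions not given in the sources used here. The deposited values are log2 CPM with an offset of 0.5 reads, so that a fold change understates the change of genes with few reads. Whole reads were recovered from these log2 values by the voom formula for depth, floors and ratios.

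The deposited log2 values were tested with limma 3.58.1 in R 4.3.3 (lmFit, then eBayes with a trend, a factor of 21 time points over all 42 samples, 21 residual degrees of freedom), contrast 6 h minus 0 h, with Benjamini-Hochberg adjustment over 14296 genes and a threshold of 0.0001. Each SE is that of limma. Simulated data had the 0 h means at both times and independent normal noise with the residual spread of the fit. Of 100 genes changed 2-fold 49 were recovered, and of 100 changed 4-fold 77, with 0 false calls. All other genes were left unchanged, unlike in the real comparison, so that the rate of false calls in these data was not measured. Symbols, biotypes and positions came from GENCODE vM21 (GRCm38) by gene identifier, and promoters from RefSeq (GRCm38.p6), which held 10686 of the measured genes. The alternatives were a fit on the 4 libraries alone, the replicate block, voom weights, a filter on the mean, a prior of 2 reads, 3 other scalings, other thresholds and leaving out each library. Python 3.11.15, numpy 2.4.6, pandas 2.3.3 and matplotlib 3.10.9 were used.

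Genes named in the text are the 10 largest rises and 10 largest falls that average 3 log2 CPM or more at the higher time, up to 4 called members per list and direction, the factors or enzymes that name a list, and the 5 largest noncoding changes in each direction that average 1 log2 CPM or more. Further list members were named after their values were seen. Some named genes are not reported here. The members and lists were chosen with earlier results of these data known.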

Additional observations from a re-analysis of the deposited data

How the results depend on the processing

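The number of genes called kept within 1.5 times of 3762 with the 4 libraries alone, voom weights, the filter on the mean, the prior of 2 reads, every other scaling and adjusted p below 0.001, from 3103 to 5086. With total counted reads 1036 genes were higher. At adjusted p below 0.01, 6771 genes were called, 3108 higher and 3663 lower, and with a 2-fold minimum 2448 were called, 949 of them higher. Leaving out 1 of the 4 libraries gave 2292 to 2478 genes, 935 to 1140 higher and 1278 to 1372 lower, in a fit with fewer samples. The agreement of the changes in both replicates was r = 0.963 with the filter on the mean, against 0.888. Genes changed at least 2-fold in both replicates ranged from 1770 to 2885, and this count has no value without a library. The letters A and B mark duplicate courses. At 0 h and 6 h the libraries of 1 course did not clearly deviate together. The correlation across genes of A minus B at 0 h with A minus B at 6 h was 0.068. Over all 210 pairs of time points the mean correlation between residuals of 2 same-letter libraries was 0.08. The lowest was -0.474, so that this mean does not describe each pair. With the replicate block 4291 genes were called, 1996 higher and 2295 lower, and Nanog and Hspa5 passed among the named genes, of which it took no other call away. Among the named genes none changed direction, and 70 to 77 lost their call without 1 of the libraries, 51 with the 4 libraries alone, 49 with quantile normalization, 39 with voom weights and 27 with total counted reads. Depth limits genes near the floor of 3 reads, and with duplicates the spread rests on the other time points.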

Other observations

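The largest changes lay partly outside the groups above. Vgf, a secreted neuropeptide precursor, had 6 reads in both 0 h libraries and 854 and 559 at 6 h (-1.86 and -1.89 against 4.96 and 5.03 log2 CPM), a fitted rise of 6.87 that was the same size in both replicates. Pcdh17, a protocadherin, went from 2 and 2 reads to 339 and 171. Dio3, a thyroid hormone deiodinase, went from 4 and 11 reads to 343 and 178. Nppb, the natriuretic peptide, went from 6 and 6 reads to 324 and 184, a call lost whichever of the 4 libraries was left out (adjusted p up to 0.000885), and Cemip, a hyaluronan-binding protein, from 29 and 15 to 780 and 373, lost without 0 h B (adjusted p = 0.000157). In the other direction Tmem44 fell 14.2-fold, Arhgef19, a guanine nucleotide exchange factor, 12.9-fold, Cpne7 12.8-fold, Tarm1 12.3-fold, Syt3, a calcium sensor of vesicle release, 10.2-fold, Ovgp1 10.1-fold and Trim63, a muscle ubiquitin ligase, 9.27-fold. Arhgef19 had 3.74 and 3.82 log2 CPM at 0 h and 0.15 and 0.03 at 6 h, with a gap between the time points far wider than that between duplicates.

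Of 22 NF-kB and inflammatory genes 7 rose (31.8%) and 2 fell (9.09%), and 5 rose whichever of the 4 libraries was left out. The list holds 34 genes, and Il6, Il1b and Ccl2 were among those not measured. Ptgs2 and Ccl20, with 0 and 1 reads over both 0 h libraries, could hardly fall. Rela, a subunit of NF-kB, rose 2.6-fold, from 4.21 and 4.35 to 5.65 and 5.66 log2 CPM, and the receptor gene Tnfrsf12a 6.17-fold, while the adhesion molecule gene Icam1 fell 3.1-fold. Of 32 p53 targets and regulators 4 rose (12.5%) and 5 fell (15.6%), and 1 to 4 rose without 1 of the libraries. Perp, a desmosome protein that the epidermal list also holds, rose 5.3-fold and Ephx1, an epoxide hydrolase, fell 6.95-fold, while Trp53 itself and its classic target Cdkn1a were not called (0.39 and -0.4). Of 44 endoplasmic reticulum stress and ATF4 genes 3 rose (6.82%) and 6 fell (13.6%), and 0 to 1 rose and 3 to 5 fell without 1 of the libraries, while 7 rose with median centring. Ddit4, an inhibitor of mTORC1 that the hypoxia list also holds, fell 2.66-fold, and the chaperone gene Hspa5 was not called (0.58, adjusted p = 0.00029). Of 35 Wnt genes 7 rose (20.0%) and 5 fell (14.3%), with 3 to 4 rising without 1 of the libraries and 2 rising among genes that averaged 1 log2 CPM or more. Wnt5a rose 8.89-fold and Wnt7b 6.46-fold, both from low levels, the co-receptor gene Lrp5 fell 2.64-fold, and the target Axin2 was not called (-0.21). Among germline genes Rec8, a meiotic cohesin subunit, fell 5.34-fold, from 5.12 and 5.24 to 2.54 and 2.98 log2 CPM.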
